A study of Homo sapiens and Mus musculus with 13 samples.

Results

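Hybrids of RNA and DNA were mapped at 5 mouse genes of the extracellular matrix and the cytoskeleton, Col1a1, Col1a2, Fn1, Vim and Actb, in embryonic stem cells and in fibroblasts. The genes were given by name and by position on the mm9 build, and every peak that touched a gene or the 10 kb on either side of it, together called a locus here, was taken. This gave 68 peaks of the 129658 in 3 mouse peak lists: 13 of 53859 in E14 DRIP-seq, 20 of 35894 in 3T3 DRIP-seq and 35 of 39905 in 3T3 DRIPc-seq. E14 is an embryonic stem cell line and 3T3 an embryonic fibroblast line, both established in culture, and the labels name no genotype change or treatment for either. DRIP-seq cuts genomic DNA with restriction enzymes, pulls down the fragments that hold a hybrid with an antibody against RNA:DNA hybrids and sequences their DNA, so a peak has no strand and its reach depends on the restriction fragments. DRIPc-seq reads the RNA of the recovered hybrids instead, and each peak carries a strand. All 3 libraries were cut with HindIII, EcoRI, BsrGI, XbaI and SspI. The name of the DRIPc list mentions RNase A while its labels name no RNase.

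R-loops are structures in which an RNA pairs with its DNA template and leaves the other DNA strand unpaired. They form mostly during transcription and are known at the starts and ends of many active genes. Col1a1 and Col1a2 encode the chains of type I collagen, the main fibrous protein of connective tissue. Fn1 encodes fibronectin, a matrix glycoprotein that binds integrins, Vim encodes vimentin, an intermediate filament protein of mesenchymal cells, and Actb encodes beta-actin, a cytoskeletal protein made in nearly all cells.

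Each list came from 1 sample, so no comparison here has a replicate check and no p-value was computed. A cell line cannot be told apart from its library. The lists give positions without read counts, so the depth of each library is unknown, and a locus without a peak is one where the authors listed none. No mm9 annotation or sequence was used, so exons, introns, UTRs and neighbouring genes were not assigned. The strand of each gene is general knowledge of the mouse genome: Col1a1, Col1a2 and Vim lie on the plus strand, Fn1 and Actb on the minus strand.

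The 3T3 DRIP list had peaks at all 5 loci, while the E14 list had peaks at Fn1, Vim and Actb and none at either collagen gene. Peaks of 3T3 DRIP covered 137 kb of the 233 kb in the 5 loci, or 58.8%, and those of E14 covered 42.7 kb, or 18.4%. Over all chromosomes the order was the other way, with 4.91% covered in E14 and 4.64% in 3T3. The 3T3 DRIPc list also had peaks at all 5 loci and covered 87.7 kb, or 37.7%, against 3.27% of all chromosomes. To give a background for such counts, the chromosomes were divided into consecutive tiles of the length of each locus. The tiles were not restricted to genes, and the median tile had no cover in any list. No background drawn from other genes was computed, so tile shares do not say how unusual a locus is among genes. Of tiles as long as the shortest locus, Actb, 23.7% touched an E14 DRIP peak, 17.1% a 3T3 DRIP peak and 15.1% a 3T3 DRIPc peak. For tiles as long as the Fn1 locus, the longest of the 5, these shares were 44.8%, 29.9% and 28.9%.

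**Figure D1:**
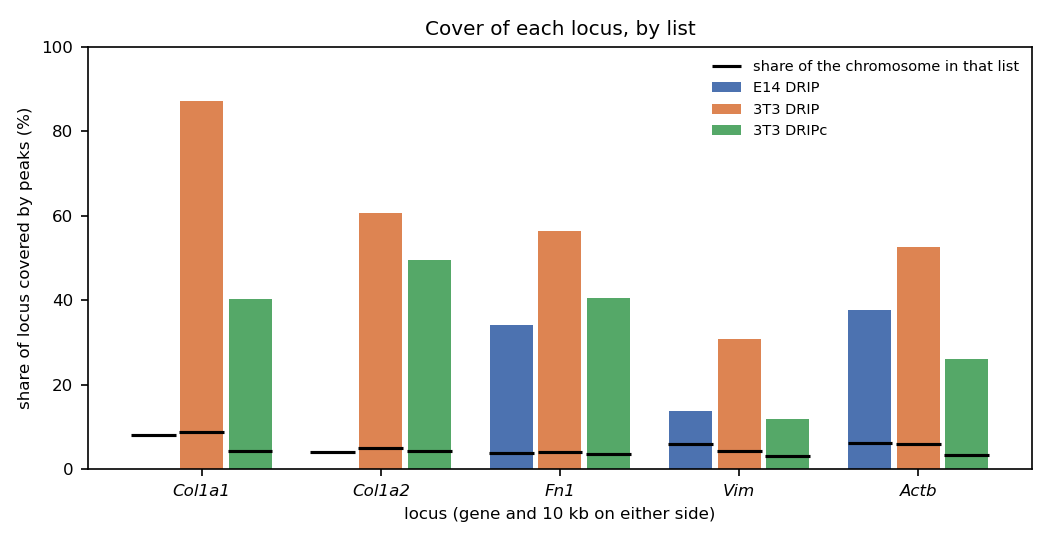
Share of each locus (gene and 10 kb on either side) covered by peaks, in percent, for E14 DRIP, 3T3 DRIP and 3T3 DRIPc, with a black line at the share of the whole chromosome covered in that list. Each bar is 1 list, so there is no error bar; 3T3 DRIP runs from 30.9% at Vim to 87.1% at Col1a1, and E14 stands at 0 for both collagen genes.

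Col1a1 lies on chromosome 11 from 94797654 to 94814498 and was covered over its whole length in 3T3 DRIP-seq. A single peak of 21401 bp, from 94796416 to 94817816, began 1.24 kb before the gene and ended 3.32 kb past it. Only 177 of the 35894 peaks of the list were longer. A peak of 3224 bp abutted it on the upstream side and one of 8095 bp on the downstream side, each with 1 bp between them. Together the 3 made a run of 32.7 kb, the 58th longest of 33095 such runs in the list.

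E14 had no peak at the Col1a1 locus. Its nearest peaks lay 83.6 kb upstream and 37.0 kb downstream of the gene, and 5 E14 peaks covered 12.8% of the flanks between 10 and 100 kb from the gene. In 3T3 DRIP, 10 peaks covered 38.4% of the same flanks. Of tiles as long as this locus, 29.4% touched an E14 DRIP peak, 20.7% a 3T3 DRIP peak and 18.8% a 3T3 DRIPc peak. A 3T3 DRIP peak without an E14 peak was found in 4.1% of the tiles. A cover as high as that of Col1a1 in 3T3 DRIP was found in 0.246% of tiles. These tiles came from all chromosomes, and chromosome 11 was denser in peaks. It was covered to 8.70% in 3T3 DRIP and 8.16% in E14, against 4.64% and 4.91% over all chromosomes. Shares for tiles of chromosome 11 alone were not computed.

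DRIPc-seq in 3T3 placed hybrids at Col1a1 on both strands. It listed 9 peaks, 4 on the strand of the gene and 5 on the opposite strand, and all lay inside the long DRIP run. The gene-strand peaks were 2090, 6270, 4710 and 490 bp long, and the opposite-strand peaks 1950, 4340, 1300, 1640 and 280 bp. They overlapped along the gene: at the start the opposite strand began 0.40 kb before the gene and the gene strand 0.23 kb before it, and the next pair began 3.27 and 3.11 kb into the gene. Of the DRIPc-covered length at the locus, 55.8% carried both strands, against 5.82% over the whole list. The gene itself was covered to 82.4% by DRIPc peaks, while the 10 kb before and after it were covered to 4.03% and 5.30%.

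Col1a2 lies on chromosome 6 from 4455697 to 4491543, and its 3T3 DRIP peaks covered the start and most of the gene but not its end. Peaks of 2516, 11000 and 18810 bp abutted each other from 4450351 to 4482678, a run of 32.3 kb that ranked 62nd by length in the list. A peak of 1600 bp followed and ended 7.22 kb before the end of the gene. When the gene was split into 3 equal parts in the direction of transcription, cover was 99.99% in the first part, 100% in the middle part and 39.2% in the last part. No 3T3 DRIP peak touched the 10 kb after the gene. Cover as high as at this locus was found in 0.969% of tiles of its length.

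E14 had no peak at Col1a2 either. The nearest E14 peaks lay 221 kb upstream and 58.3 kb downstream. In the flanks between 10 and 100 kb the lists were close, with 4 E14 peaks covering 5.89% and 5 3T3 DRIP peaks covering 5.57%. Of tiles as long as this locus, 36.1% touched an E14 DRIP peak, 24.8% a 3T3 DRIP peak and 23.2% a 3T3 DRIPc peak. A 3T3 DRIP peak with no E14 peak was found in 4.21% of these tiles, or 1992 of 47268.

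At Col1a2, unlike at the other 4 loci, all DRIPc peaks were on the strand opposite to the gene. They were 1300, 26250 and 160 bp long and all on the minus strand, whereas Col1a2 is a plus-strand gene. The longest ran from 4454491 to 4480740, from 1.21 kb before the gene to 25.0 kb into it, and 195 of the 39905 DRIPc peaks were longer. It lay inside the DRIP run except for 1 bp, where 2 DRIP peaks abut. The plus strand had no peak at this locus. DRIPc peaks on 1 strand alone were found in 70.2% of the tiles of this length that held any DRIPc peak. Those tiles were not matched for cover, and 1.23% of all tiles of this length had as much DRIPc cover as Col1a2. The share therefore does not say how usual a single strand is at a locus with this much cover. Among the 5 loci, Col1a2 was the only one with no peak on the strand of its gene. Whether the minus-strand peaks come from another transcript was not tested, nor whether the strand in the list is that of the RNA.

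**Figure D2:**
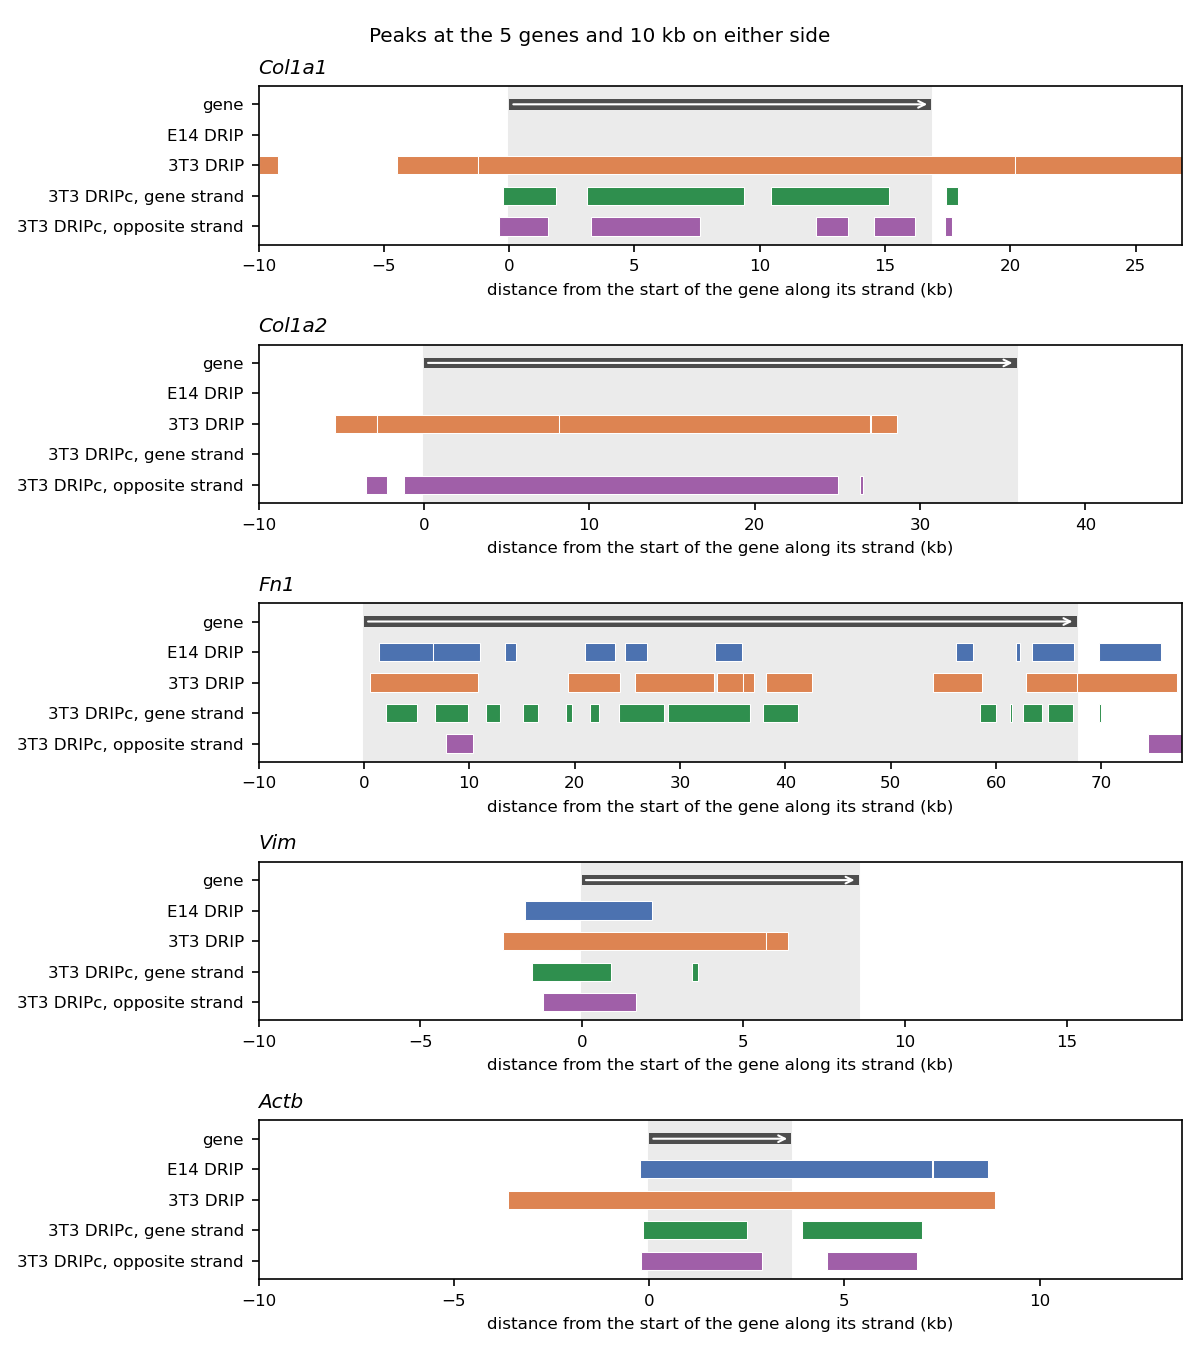
Position of every peak at the 5 loci, in kb from the start of the gene along its strand, for E14 DRIP, 3T3 DRIP and 3T3 DRIPc split by strand relative to the gene; the grey band is the gene and the arrow its direction. Col1a1 and Col1a2 have no E14 peak, and Col1a2 has a DRIPc peak of 26250 bp on the opposite strand and none on its own.

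Fn1, on chromosome 1 from 71632096 to 71699745, was present in all 3 lists as a row of separate peaks along the gene. E14 had 10 DRIP peaks there and 3T3 had 9. They covered 35.4% of the gene in E14 and 59.0% in 3T3. No list had a peak over the first base of the gene or in the 10 kb before it: the first peak began 0.61 kb into the gene in 3T3 DRIP, 1.46 kb in E14 DRIP and 2.13 kb in DRIPc. The next peaks upstream of the gene were 505 kb away in E14 and 600.4 kb away in 3T3 DRIP. Of the 10 E14 peaks, 8 touched a 3T3 DRIP peak, and 91.1% of the E14 length lay under 3T3 peaks. In the other direction, 55.1% of the 3T3 length lay under E14 peaks.

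The E14 and 3T3 lists were closest at the start of Fn1 and apart in the middle. In the first of 3 equal parts of the gene, E14 peaks covered 53.8% and 3T3 peaks 59.4%. In the middle part these were 26.0% and 76.1%, and in the last part 26.3% and 41.5%. Of the longest 3T3 DRIP peaks in the gene, one of 10251 bp ran from 0.61 to 10.9 kb into the gene. It contained an E14 peak of 5103 bp and 96.7% of the E14 peak of 4446 bp that abuts it. Another, of 7506 bp from 71666534 to 71674039, overlapped an E14 peak of 2011 bp. One pair matched closely in both lists, 2569 bp in E14 and 2449 bp in 3T3, with starts 61 bp and ends 181 bp apart. Some stretches had peaks in 1 line alone: 3T3 peaks of 1035 and 4383 bp had no E14 peak, and E14 peaks of 1062 and 372 bp had no 3T3 DRIP peak.

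Past the end of Fn1, both lists had a further peak, with a length of 5929 bp in the E14 list and 9429 bp in the 3T3 list. The 3T3 peak ended 9.50 kb after the gene, and with its neighbours it covered 94.8% of the 10 kb downstream, against 59.3% in E14. Of tiles as long as the Fn1 locus, 3.03% had as much E14 DRIP cover and 0.82% as much 3T3 DRIP cover. A peak of all 3 lists was found in 21.1% of these tiles.

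DRIPc-seq at Fn1 was mostly on the strand of the gene. Of 16 DRIPc peaks, 14 were on the gene's minus strand, between 180 and 7790 bp long, and 2 were on the plus strand. The gene-strand peaks covered 31.7 of the 67.7 kb of the gene, and the opposite strand 2.51 kb. The longest, of 7790 bp from 71663051 to 71670840, lay in the middle part, where DRIPc cover was highest at 68.3%. One plus-strand peak, of 2510 bp, overlapped a gene-strand peak 7.80 kb into the gene, and the other, of 5840 bp, began past the end of the gene and crossed the border of the locus. Of the 16 peaks, 3 touched no 3T3 DRIP peak; they were 1310, 1470 and 180 bp long and all on the gene strand.

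**Figure D3:**
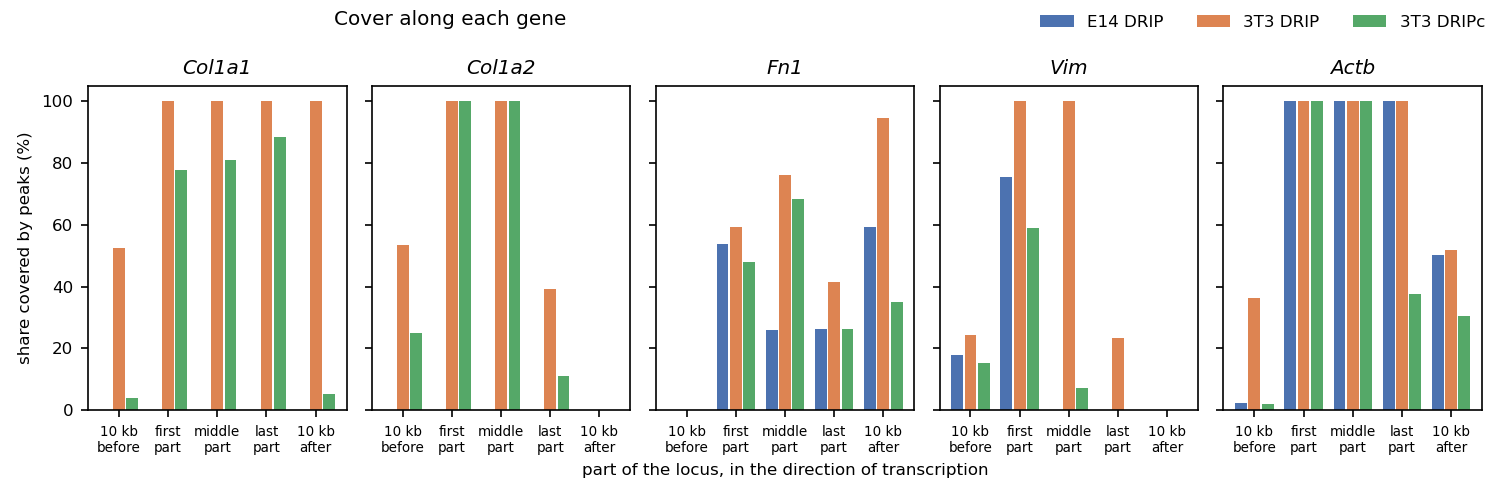
Share of each part of the 5 loci covered by peaks, in percent, in the 10 kb before the gene, 3 equal parts of the gene in the direction of transcription and the 10 kb after it, for the 3 lists. Fn1 has no cover before the gene in any list, Vim has none in its last part in E14 DRIP or 3T3 DRIPc, and the gene of Actb, but not its flanks, is covered throughout in both DRIP lists.

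Vim lies on chromosome 2 from 13495887 to 13504455, and the lists had its start in common. E14 had 1 peak of 3930 bp, from 1.77 kb before the gene to 2.16 kb into it. 3T3 DRIP had an 8153 bp peak that contained it, from 2.44 kb before to 5.71 kb into the gene, and an abutting peak of 668 bp. The 3T3 peaks covered 74.5% of the gene and the E14 peak 25.2%. Of tiles as long as the Vim locus, 25.9% touched an E14 DRIP peak, 18.6% a 3T3 DRIP peak, 16.6% a 3T3 DRIPc peak and 10.3% a peak of all 3 lists. The E14 peak filled 75.6% of the first of 3 equal parts of the gene and nothing after it, while 3T3 DRIP covered the first and middle parts in full and 23.4% of the last.

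The DRIPc peaks at Vim sat at the start on both strands. A gene-strand peak of 2430 bp ran from 1.54 kb before to 0.89 kb into the gene, and an opposite-strand peak of 2870 bp from 1.19 kb before to 1.68 kb into it. Another peak, on the gene strand and 200 bp long, lay 3.40 kb into the gene. Both strands carried 60.8% of the DRIPc-covered length. Cover at this locus was the lowest of the 5 in 3T3 DRIP, at 30.9%, and in 3T3 DRIPc, at 12.0%; among tiles of its length, 5.73% and 7.95% had as much. In E14, 13.8% of the locus was covered, and 11.6% of tiles had as much.

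Actb, on chromosome 5 from 143664794 to 143668435, was the locus most alike between the lines, with the whole gene under a single peak in both. In E14 this peak was 7467 bp long and ran from 0.24 kb before the gene to 3.59 kb past it, closely followed by a peak of 1424 bp. In 3T3 one peak of 12460 bp held both E14 peaks and ran from 3.62 kb before to 5.20 kb past the gene. E14 peaks covered 71.4% of the 3T3 DRIP length at the locus, the highest share of the 5, against 44.6% at Vim. The lists differed little downstream, where 50.1% of the 10 kb was covered in E14 and 52.0% in 3T3, and more upstream, with 2.35% in E14 and 36.2% in 3T3. Of tiles as long as the Actb locus, 9.0% held a peak of all 3 lists, and 2.73% had as much 3T3 DRIP cover.

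DRIPc peaks at Actb came as 2 blocks, each on both strands. Over the start, the gene strand had a peak of 2660 bp and the opposite strand one of 3090 bp, beginning 0.16 and 0.21 kb before the gene. Past the end of the gene, the gene strand had a peak of 3060 bp from 3.93 to 6.99 kb from the start, and the opposite strand one of 2280 bp within it. Between the blocks, the end of the gene had no DRIPc peak. Both strands carried 80.3% of the covered length, the highest share of the 5 loci. Actb has processed pseudogenes elsewhere in the genome, and how reads with several possible positions were placed is not stated in the labels.

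**Figure D4:**
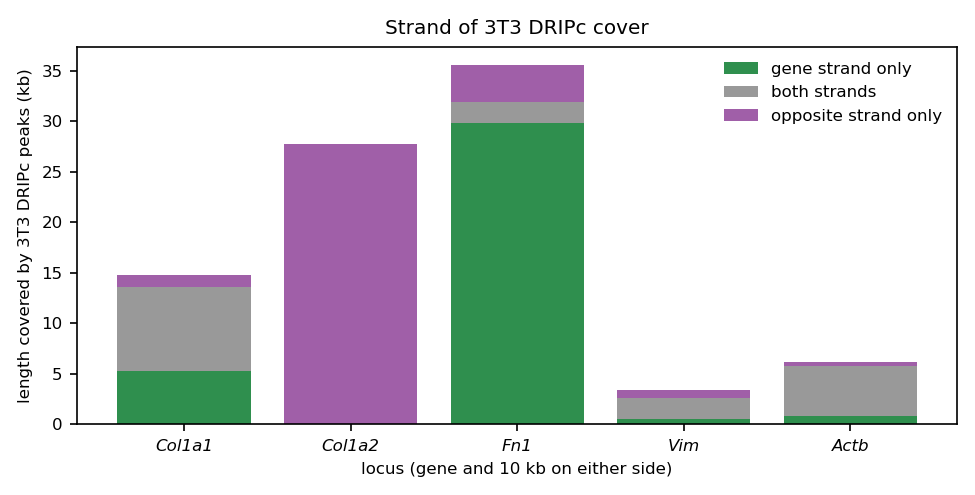
Length covered by 3T3 DRIPc peaks at each locus, in kb, split into the strand of the gene alone, both strands and the opposite strand alone. Fn1 has 29.8 kb on the gene strand alone, Col1a2 has 27.7 kb on the opposite strand alone, and at Col1a1, Vim and Actb most of the covered length carries both strands.

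Set side by side, the DRIPc strands at the 5 loci had no common direction. Counting each strand separately, 51.2% of the DRIPc length lay on the strand of the gene. This value rested on 2 loci: it was 69.6% without Col1a2 and 32.5% without Fn1. By number, 22 of 35 DRIPc peaks were on the gene strand. The share on the gene strand was 84.7% at Fn1, 58.8% at Col1a1, 51.6% at Actb, 47.8% at Vim and 0% at Col1a2. Over the whole DRIPc list 50.8% of the length was on the plus strand; the share on the strand of genes was not computed, since no annotation was used. Both strands were found at 5 of the 20 3T3 DRIP peaks, against 9.67% of the list, the minus strand alone at 10, against 17.7%, and neither at 5, against 54.4%. The plus strand alone was found at none, against 18.3%; all 10 peaks with the minus strand alone lay at Fn1 (7) and Col1a2 (3).

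Peaks at these loci overlapped between lists to different degrees. Intervals here are exact Clopper-Pearson 95% intervals that cover counting error only, and peaks of 1 gene are not independent. The intervals are therefore too narrow, and none of them tests a share against that of its whole list. Of the E14 peaks, 11 of 13, or 84.6% (54.6 to 98.1%), touched a 3T3 DRIP peak, against 47.8% of the whole list. Fn1 alone held 10 of these 13 peaks. Of the 3T3 DRIP peaks, 9 of 20, or 45.0% (23.1 to 68.5%), touched an E14 peak, against 61.6% of the list. The 11 that did not were the 8 peaks at the collagen genes, 2 at Fn1 and 1 at Vim. In 10 of the 11 touching pairs, the 3T3 peak was the longer, from 1.21 to 8.75 times the E14 peak. The 3T3 peaks of 12460 bp at Actb and 10251 bp at Fn1 were each paired with more than a single E14 peak. The ratio of 8.75 sets the Actb peak against the E14 peak of 1424 bp. Peaks were also longer in the whole 3T3 list, with a median of 2186 bp against 1752 bp in E14. The share over all touching pairs of the 2 lists was not computed. DRIPc peaks touched 3T3 DRIP peaks in 32 of 35 cases, or 91.4% (76.9 to 98.2%), against 58.2% of the list. They touched E14 peaks in 16 of 35 cases, or 45.7% (28.8 to 63.4%), against 48.5% of the list. In the other direction, 9 of 13 E14 peaks, or 69.2% (38.6 to 90.9%), touched a DRIPc peak, against 29.9% of the list. Seen from 3T3 DRIP, 15 of 20, or 75.0% (50.9 to 91.3%), touched a DRIPc peak, against 45.6%. Those that did had a median of 7506 bp and those that did not 1868 bp, and long peaks are more easily touched. The same limit holds for the other shares, as touching peaks had the higher median in each comparison. For E14 peaks the medians were 3930 and 717 bp by touch of 3T3 DRIP, and 3962 and 1243 bp by touch of DRIPc. Each list also covered more of the loci than of all chromosomes, 58.8% against 4.64% in 3T3 DRIP. A peak at these loci is thus more easily touched than one elsewhere, and the list shares do not allow for this.

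**Figure D5:**
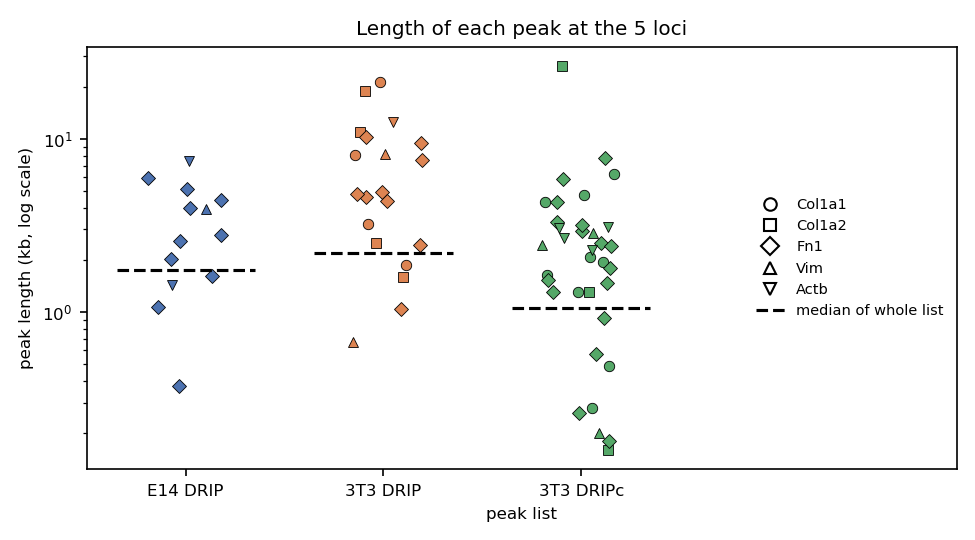
Length of each of the 68 peaks at the 5 loci, in kb on a log scale, by list, with a marker for each gene and a dashed line at the median of the whole list. The medians at the loci are 2799 bp in E14 DRIP, 4870 bp in 3T3 DRIP and 2280 bp in 3T3 DRIPc, above those of the whole lists, 1752, 2186 and 1060 bp. Peaks were taken because they touched a locus, which favours long peaks, and Fn1 gave 10, 9 and 16 of them in the 3 lists.

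The authors gave each DRIP peak one of 4 class names, which the files and labels do not define. In 3T3, 7 of the 20 peaks were named Noisy_BroadPeak, against 11.0% of the list, and each locus had at least 1. The peak over the start of Col1a1, Col1a2, Vim and Actb, and the first peak in Fn1, all carried this name. In E14, 2 of 13 peaks were named Noisy_BroadPeak, against 19.3% of the list, both within Fn1. Noisy_MedPeak was the name of 10 of the 13 E14 peaks, that over the start of Vim included, against 74.0% of the list. In 3T3 it was the name of 12 of 20, against 84.2% of the list. In the whole 3T3 list the median was 3304 bp for Noisy_BroadPeak and 2029 bp for Noisy_MedPeak. The 3T3 DRIP peaks at the loci were long for their list, and class shares among peaks of equal length were not computed.

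The name Sparse_SharpPeak was given once in each line, to a long peak in both cases. In 3T3 it was the peak of 18810 bp within Col1a2, where only 20 of the 503 peaks of this class were longer and the class median was 2381 bp. In E14 it was the peak of 7467 bp over Actb, with 65 of 1540 longer and a class median of 396 bp. This class made up 1.4% of the 3T3 list and 2.86% of the E14 list. At Actb the same gene was therefore named Sparse_SharpPeak in E14 and Noisy_BroadPeak in 3T3.

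The border of 10 kb gave 13 E14, 20 3T3 DRIP and 35 DRIPc peaks. These counts were 11, 15 and 28 for the genes alone, 13, 19 and 34 with 5 kb and 16, 23 and 35 with 20 kb. Just inside the 10 kb border lay a 3T3 DRIP peak of 1868 bp that ended 9.21 kb before Col1a1. Peaks just outside included E14 peaks of 8440 bp, 11.7 kb past Actb, and 616 bp, 15.2 kb past Fn1. They also included 3T3 DRIP peaks of 1673 bp, 15.5 kb before Col1a2, 2716 bp, 18.0 kb past Fn1, and 2664 bp, 19.7 kb before Actb. Between 10 and 100 kb from the gene, Vim had no 3T3 DRIP peak and 2 E14 peaks, whereas Actb had 12 and 13.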

How the data were processed

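The 3 mouse peak lists used here come from 3 of the 13 samples; the 6 human lists were not used. The authors deposited each peak as a start and an end in bp, without a height or any other value of its signal; the DRIP lists add class names and a score column of zeros, which was not used. BWA 0.6.1, TopHat2 2.0.5 and Bismark 0.7.7 are listed, with no role given, in the submitters' processing notes, as is mm9. How peaks were called, at which threshold and against which control was not given in the sources used here. Strands of the 3T3 DRIPc list were read from its 2 track lines, per the file headers, and all its positions are multiples of 10 bp. That the strand given is that of the RNA was taken as it stands and not checked. Every statement on the strand of the gene or the opposite strand rests on it.

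Gene positions were taken as counted from 1. All 68 peaks at the loci are accounted for, and every member gene is named. The members and lists were chosen with earlier results of these data known. Peaks touched when they shared at least 1 bp, with strand ignored. Abutting peaks had at most 1 bp between them. Tiles covered 21 chromosomes, each up to the last position in any mouse list. Alternatives were other windows, 50% cover, the longest 50% of each list and merging within 1 kb; 2 windows for class names were added after seeing the data. Overlap counts equalled those of bedtools 2.31.1 in 6 of 6 comparisons. On simulated lists of 5000 peaks a planted share of 60% was recovered as 60%. Software was Python 3.11.15, pandas 2.3.3, numpy 2.4.6, scipy 1.17.1 and matplotlib 3.10.9.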

Additional observations from a re-analysis of the deposited data

How the results depend on the processing

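The 16 results (loci with a peak, number of peaks and covered length in each list, shares touching another list, share of DRIPc length on the gene strand, and broad class counts) gave 62 values under the alternatives, of which 56 stayed within 1.5 times the main count or within the interval of the main share. Intervals of the shares over peaks were wide, so a share could shift much and still be counted as unmoved. With at least 50% of a 3T3 DRIP peak covered by E14 peaks, 30% of 20 qualified, in place of 45%. The windows are nested, so their counts are not independent. The 3T3 DRIP list had peaks at all 5 loci and E14 at 3 with windows of 0, 5 and 20 kb and with the longest 50% of each list. The other 6 values moved. The share of DRIPc length on the gene strand was 53.9% for the genes alone, 50.01% with 20 kb and 50.2% with the longest 50% of the list. The interval of this share counted each base pair as a separate observation. Base pairs of 1 peak are not independent, so the interval was too narrow and these shifts are small. Leaving out a locus changed the share more, to 32.5% without Fn1 and 69.6% without Col1a2. Also with the longest 50%, 100% of 9 E14 peaks touched a 3T3 DRIP peak. When at least 50% of a 3T3 DRIP peak had to be covered by DRIPc peaks, 45% of 20 qualified, in place of 75.0%, which is near the 45.6% of the whole list at 1 bp; the background at 50% was not computed. Merging peaks within 1 kb left 11 3T3 DRIP peaks in place of 20. No paired analysis was possible because each mouse group has 1 sample. For the same reason no replicate could be left out. Depth is unknown, so what it limits cannot be stated.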
